A study of Mus musculus with 11 samples.

Results

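The 48 genes described here are induced by interferons in mouse cells. They were read on Illumina MouseWG-6 arrays in tumors that A375, a human melanoma line with mutant BRAF, formed in CD1 athymic mice. A probe was taken as a gene's when its symbol, or an older symbol matched through the Entrez identifier, was in the list, its detection p-value was under 0.05 on at least 1 array and it was the brightest probe of that gene. The detection p-value compares a probe with the negative control beads of the same array. Of the 48 genes, 47 had a named probe and 41 were detected, among 10933 genes detected in all. The 41 genes were detected on all 11 arrays in 34 cases and on 1 to 4 arrays in 5 (Isg20, Mx1, Oas1a, Parp9 and Socs1). Ifit1, Oas3, Ifih1, Gbp6, Iigp1 and Xaf1 were detected on no array, and no probe was named for Ifi44.

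Tumors of mice gavaged daily with 60 mg/kg of PLX4720, which inhibits mutant BRAF, were read on 3 arrays. Another 3 arrays held tumors of mice injected into the peritoneum 3 times per week with 10 mg/kg of bevacizumab, which binds VEGF-A. COMBO mice received both drugs (2 arrays), and vehicle mice received methylcellulose (3 arrays). All mice were female, were implanted under the skin at 6 weeks of age with the same human line, and lack a thymus. Per the labels, treatment began at 150 to 200 mm3 and lasted 12 days, whereas the study's methods give a larger volume and a longer treatment. The methods describe the arrays as biological replicates, and a xenograft mixes human tumor cells with mouse vessels, fibroblasts and leukocytes. The mouse probes were read for the host, and how much human RNA bound to them was not measured here. In such bulk RNA, more cells of a type and more RNA per cell cannot be told apart.

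Type I interferons bind IFNAR1 and IFNAR2 and activate the kinases JAK1 and TYK2, after which a complex that includes STAT2 and IRF9 binds the interferon-stimulated response element (ISRE) in the nucleus. Interferon gamma acts through JAK1 and JAK2, and many of its target genes carry the gamma-activated site (GAS). Tumor cells, macrophages, endothelial cells and fibroblasts can all respond, and the induced genes include sensors of viral nucleic acid, antiviral effectors, GTPases, the ISG15 modification system and feedback inhibitors.

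Promoters are shown because interferon acts on these genes through the elements named above. RefSeq promoters (GRCm38.p6) matched 32 of the 41 detected genes. In the 250 bases upstream of a start, the ISRE core, searched as a GAAA followed by any 2 bases and another GAAA, was found on either strand in 13 of the 32 genes, against 3.46% of 27025 genes in the table. The GAS core TTCNNNGAA, a palindrome, was found in 10 of the 32 genes, against 8.13%. The genes are listed for their response to interferon, so these shares are a description. The windows that hold the ISRE core and lie outside the annotated gene are printed for the genes whose values are given below, each on its gene's strand with every base of an ISRE match in capitals. Capitals mark the ISRE core only, and the part of a GAS match that lies outside it stays in lower case.
Irgm1: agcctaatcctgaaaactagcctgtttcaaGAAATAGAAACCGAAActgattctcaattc
Isg15: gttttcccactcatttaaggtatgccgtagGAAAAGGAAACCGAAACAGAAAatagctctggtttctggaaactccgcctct
Bst2: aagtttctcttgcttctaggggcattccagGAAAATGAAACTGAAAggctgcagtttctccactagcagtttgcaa
Igtp: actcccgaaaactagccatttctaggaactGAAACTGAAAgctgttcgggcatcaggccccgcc
Gbp2: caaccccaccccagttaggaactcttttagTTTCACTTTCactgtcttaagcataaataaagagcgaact
Irf2: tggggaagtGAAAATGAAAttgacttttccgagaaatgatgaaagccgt
These windows are chr11:48871421-48871480 (minus strand) for Irgm1, chr4:156200845-156200926 (minus strand) for Isg15, chr8:71537557-71537632 (minus strand) for Bst2, chr11:58199492-58199555 (plus strand) for Igtp, chr3:142620574-142620643 (plus strand) for Gbp2 and chr8:46739495-46739543 (plus strand) for Irf2. Bst2 had 2 overlapping matches between 130 and 115 bases upstream of its start, the first of which overlaps a GAS match. Isg15 had 3 overlapping matches between 78 and 57 bases upstream of its start, and Irgm1 had 2 overlapping matches between 30 and 15 bases upstream. The match of Igtp lay 34 to 25 bases upstream. In Gbp2 the core was on the opposite strand, so that it reads as a pair of TTTC as printed, 59 to 50 bases upstream, and in Irf2 it lay 241 to 232 bases upstream. Ifit3, Gbp3, Oas1a, Oas1g, Rsad2, Socs1 and Stat2 also held the ISRE core. Of the 6 genes that rose with PLX4720, 4 had a promoter in the table (Irf7, Trim21, Irgm1 and Ifitm3), and 1 of these, Irgm1, held the ISRE core.

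Some properties of the arrays bear on all values below. The arrays detected 10115 to 15130 probes. Skeletal muscle genes differed between arrays of 1 group, and a level here is the mean log2 signal of the 16 measured of 18 muscle markers. It was 13.13, 5.15 and 8.10 on PLX4720 arrays 1, 2 and 3, 5.30, 9.68 and 5.07 on the bevacizumab arrays, 10.33 and 6.76 on the COMBO arrays and 5.18, 6.53 and 5.10 on the vehicle arrays. Without the array of highest muscle level in each treated group, the median log2 fold change of the 41 genes against vehicle was 0.72 with PLX4720, 0.18 with bevacizumab and 0.70 with COMBO, close to the values below, but 1 gene, Ifitm3, rose with PLX4720 in place of 6. In that fit COMBO was left with array 2 only, so its 0.70 is the value of 1 array. Macrophage markers (12 of 13 measured, without Cd68) had a level of 10.36 to 10.49 with PLX4720, 9.84 to 10.36 with bevacizumab, 10.58 to 11.07 with COMBO and 9.63 to 10.28 with vehicle. The 4 leukocyte markers had 10.73 to 10.85 with PLX4720, 10.40 to 10.59 with bevacizumab, 11.04 to 11.13 with COMBO and 9.92 to 10.56 with vehicle. Of these lists Mrc1 (log2 fold change 1.24), C1qb (0.97) and Cd52 (0.92) rose with PLX4720, with adjusted p-values of 0.033, 0.046 and 0.049 from limma. Of 6 endothelial markers, Pecam1, Kdr and Emcn fell with PLX4720 and Emcn with COMBO, and their level was 6.90 to 7.74 with PLX4720, 7.54 to 7.70 with bevacizumab, 6.80 to 6.94 with COMBO and 8.17 to 8.49 with vehicle. The 6 fibroblast markers, of which 0 passed, had 9.30 to 11.52 with PLX4720, 9.52 to 10.52 with bevacizumab, 8.39 to 9.22 with COMBO and 9.23 to 9.99 with vehicle, the highest level being on PLX4720 array 2. The 3 measured of 5 plasmacytoid dendritic markers, of which 0 passed, had 6.96 to 8.71 with PLX4720, 6.97 to 7.35 with bevacizumab, 7.50 to 7.96 with COMBO and 7.12 to 7.42 with vehicle. The part of macrophages, leukocytes, endothelial cells or fibroblasts in the results below was not tested. Among the other cell types, the 5 measured of 9 natural killer markers had 6.43 to 7.11 with PLX4720, 6.63 to 6.92 with bevacizumab, 6.85 to 7.12 with COMBO and 5.62 to 6.33 with vehicle, and Ncr1, Gzma, Gzmb and Eomes had no detected probe. Cd4, Cd8a and Lck, which mark T cells, had none either. The 4 measured of 7 T cell markers, of which 0 passed, had 6.04 to 7.67 with PLX4720 and 5.66 to 5.95 with vehicle. Their level was 5.84 to 6.25 with bevacizumab and 5.80 to 8.23 with COMBO. Klrd1, a natural killer receptor, rose by 2.04 with PLX4720, 2.16 with bevacizumab and 2.35 with COMBO on the log2 scale (adjusted p = 0.0014, 0.037 and 0.0072 from limma). The other 4 measured natural killer markers passed in none of these comparisons, and 1 had a lower mean with PLX4720 and 1 with COMBO.

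Of the 41 genes, 6 rose and 0 fell with PLX4720 relative to vehicle (limma, adjusted p below 0.05). Of all 10933 genes, 5.51% rose and 7.51% fell. The median log2 fold change was 0.79 over the 41 genes, against 0.14 over all genes, and it was 0.81 over the 34 genes detected on every array. A higher mean than with vehicle was found in 39 of the 41 genes, all but Dtx3l and Socs1, against 6346 of all 10933 genes. At an unadjusted p under 0.05, 18 genes were higher, against 16.8% of all genes, and 1, Dtx3l, was lower, against 14.7%. The PLX4720 arrays lay above every vehicle array for 14 genes, against 19.3% of all genes, and below every vehicle array for 0 genes, against 15.8%. At the threshold of the methods (a 1 log2 unit change or more, with an unadjusted p below 0.01), 8 genes were higher, against 4.45% of all genes, namely Isg20, Oas2 and the 6 that rose.

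**Figure D1:**
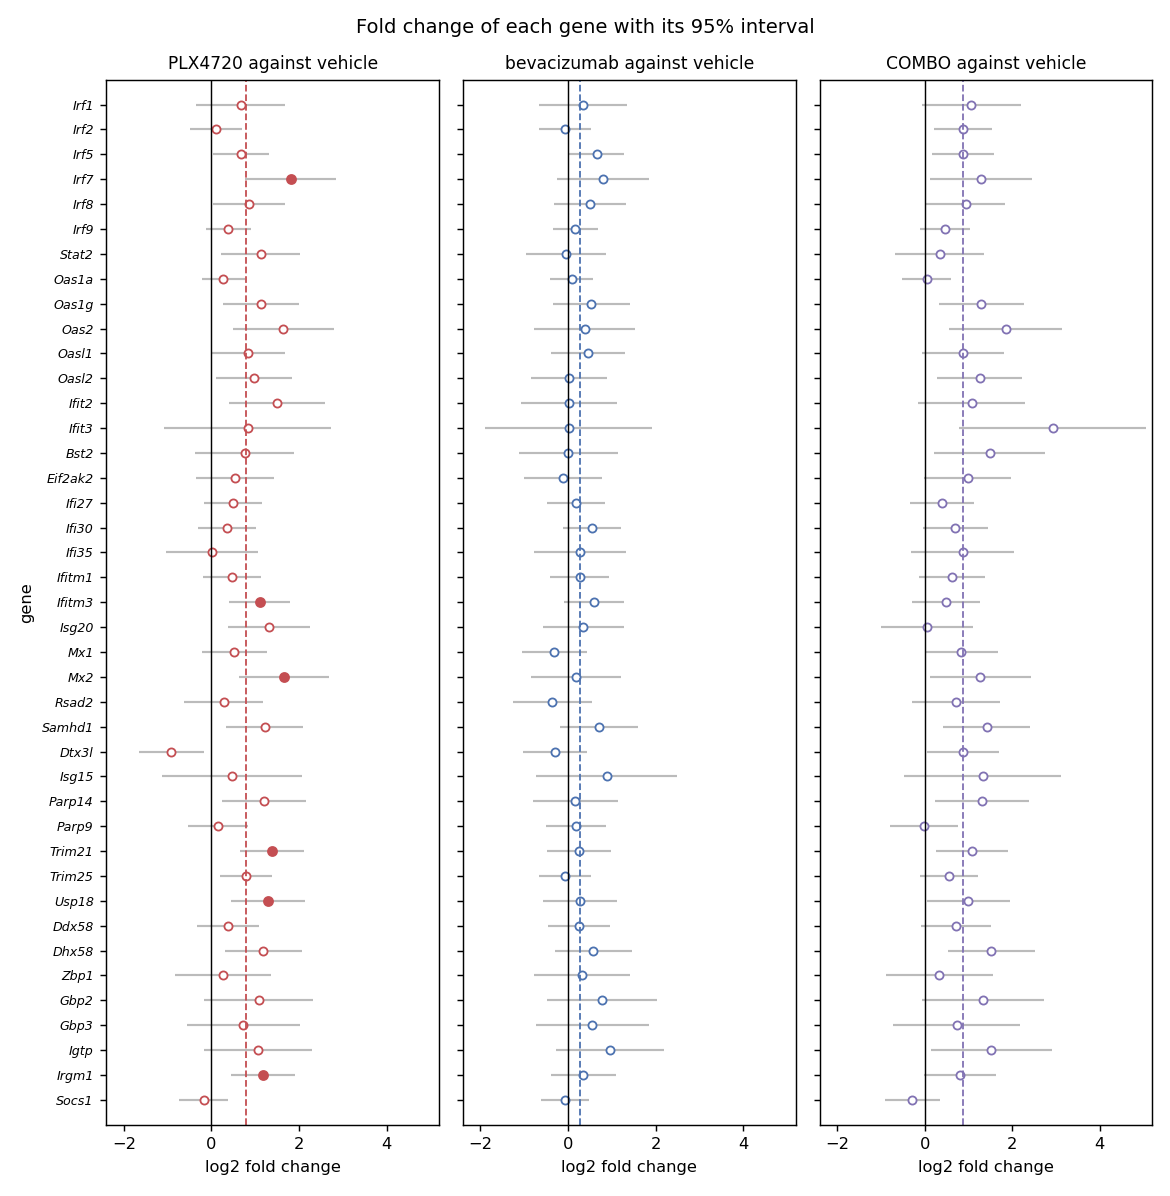
Log2 fold change of each detected gene against vehicle with its 95% interval from limma, for PLX4720 (left), bevacizumab (middle) and COMBO (right), with genes ordered by role. Filled points have an adjusted p under 0.05, and dashed lines mark the medians of 0.79, 0.26 and 0.87. Filled points are found with PLX4720 only, for 6 genes, while the COMBO median lies slightly farther to the right than the PLX4720 median.

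Of the 7 transcription factors, Irf7 rose with PLX4720. Irf7, which amplifies interferon alpha production and is itself induced, had log2 signals of 9.48, 8.93 and 8.93 with PLX4720, 8.77, 7.75 and 7.79 with bevacizumab, 8.75 and 8.44 with COMBO and 8.13, 7.77 and 6.02 with vehicle. All PLX4720 and COMBO arrays lay above all vehicle arrays, and vehicle array 3 lay far below the other vehicle arrays. The log2 fold change was 1.81 with PLX4720 (standard error 0.48, 95% interval 0.76 to 2.85, adjusted p = 0.032 from limma), and the call was lost without vehicle array 2 or 3 or PLX4720 array 1. Irf1, Irf5, Irf8, Irf9 and Stat2, the last a subunit of the complex that binds the ISRE, had log2 fold changes of 0.38 to 1.12 with PLX4720 and did not pass. Irf2, which binds the same element as Irf1 and opposes it, had a log2 fold change of 0.11 with PLX4720 (standard error 0.27). The dimmer probes of Irf1 disagreed, since those detected on 10 arrays gave -1.80 and -1.50 with PLX4720, against 1.01 for another detected on all arrays and 0.67 for the brightest.

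The OAS family makes oligoadenylates that activate RNase L, and all 5 measured members had higher means with PLX4720 and with COMBO than with vehicle, while 0 passed the adjusted test. Oas2 had log2 signals of 9.74, 9.13 and 7.61 with PLX4720, 6.56, 8.43 and 7.72 with bevacizumab, 8.98 and 9.09 with COMBO and 7.46, 6.87 and 7.24 with vehicle. The COMBO arrays differed little from each other and lay above every vehicle and bevacizumab array, whereas the PLX4720 arrays spread widely. Its log2 fold change was 1.64 with PLX4720 (standard error 0.53, adjusted p = 0.062 from limma) and 1.84 with COMBO (standard error 0.59, adjusted p = 0.19). Oas1g, Oasl1 and Oasl2 had 0.84 to 1.14 with PLX4720 and 0.87 to 1.29 with COMBO. Oas1a was detected on 1 PLX4720 array only, and its probe and that of Oas1g could share signal, since the genes are close copies.

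Ifit2 and Ifit3 belong to the IFIT family, which restrains viral translation. Ifit2 had log2 signals of 10.18, 9.90 and 8.11 with PLX4720, 7.31, 8.53 and 7.91 with bevacizumab, 9.48 and 8.46 with COMBO and 7.67, 8.13 and 7.89 with vehicle. PLX4720 array 3 fell within the vehicle range, and the log2 fold change was 1.50 with PLX4720 (standard error 0.50, adjusted p = 0.069 from limma). Ifit3 had 10.12, 6.99 and 8.25 with PLX4720, 7.95, 8.75 and 6.22 with bevacizumab, 10.94 and 10.16 with COMBO and 5.90, 8.35 and 8.62 with vehicle. Both COMBO arrays lay above all 9 other arrays, and the arrays of each other group differed by over 2 on the log2 scale. Its log2 fold change was 2.92 with COMBO against vehicle, the largest of the 41 genes (standard error 0.98, 95% interval 0.79 to 5.06, adjusted p = 0.21 from limma), and 0.83 with PLX4720. Its other probe gave 1.49 with COMBO and -0.62 with PLX4720, and a close copy, Ifit3b, could share the signal.

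Among the 12 measured antiviral effectors, Mx2 and Ifitm3 rose with PLX4720 and 0 fell. Mx2, a dynamin-like GTPase, had log2 signals of 8.33, 8.05 and 6.27 with PLX4720, 5.49, 6.07 and 6.67 with bevacizumab, 7.41 and 6.92 with COMBO and 6.00, 6.00 and 5.69 with vehicle. It was detected on all PLX4720 and COMBO arrays, on 2 bevacizumab arrays and on 1 vehicle array, and its log2 fold change with PLX4720 was 1.65 (standard error 0.47, adjusted p = 0.041 from limma). Ifitm3, a membrane protein that blocks virus entry, had 12.86, 13.93 and 13.83 with PLX4720, 13.12, 13.30 and 12.66 with bevacizumab, 12.73 and 13.11 with COMBO and 12.75, 12.41 and 12.14 with vehicle. Here PLX4720 arrays 2 and 3 were the high ones, array 1 lying just above the highest vehicle array, and the log2 fold change was 1.10 (standard error 0.32, adjusted p = 0.042). With COMBO it was 0.48 (standard error 0.36), and COMBO array 1 fell within the vehicle range.

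Samhd1, which hydrolyses deoxynucleotides, had log2 signals of 9.65, 9.59 and 8.24 with PLX4720, 8.25, 9.02 and 8.70 with bevacizumab, 9.68 and 9.04 with COMBO and 8.44, 8.00 and 7.42 with vehicle. Its log2 fold change was 1.21 with PLX4720 (adjusted p = 0.068 from limma) and 1.41 with COMBO (adjusted p = 0.19). Its other 2 detected probes gave 1.38 and 0.60 with PLX4720, and 1.42 and 0.85 with COMBO. Bst2, or tetherin, which holds virus particles at the cell surface, had 8.66, 10.01 and 8.50 with PLX4720, 8.31, 8.23 and 8.39 with bevacizumab, 10.28 and 9.28 with COMBO and 9.19, 8.62 and 7.09 with vehicle. Both COMBO arrays were above the vehicle arrays, and 2 PLX4720 arrays were within the vehicle range. Ifi35 had 6.49, 8.32 and 7.92 with PLX4720, 8.62, 7.38 and 7.50 with bevacizumab, 8.41 and 8.46 with COMBO and 8.08, 7.75 and 6.87 with vehicle, and PLX4720 array 1 was the lowest of all arrays. Isg20, an exonuclease that degrades viral RNA, had 6.77, 6.98 and 5.64 with PLX4720, 6.49, 5.07 and 4.93 with bevacizumab, 5.25 and 5.16 with COMBO and 5.28, 5.28 and 4.90 with vehicle. It was detected on all 3 PLX4720 arrays, on 1 bevacizumab array and on no COMBO or vehicle array. Its PLX4720 mean was at least 1.45-fold that of vehicle (limma, adjusted p = 0.063). Over COMBO the bound was 1.63-fold (adjusted p = 0.26). In these bounds the undetected group is set to the lowest signal called above background on its arrays, where that exceeds its own.

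ISG15 is a ubiquitin-like protein attached to other proteins, and Usp18 removes it and dampens the interferon receptor. Of the 7 genes grouped here under ISG15 and the ubiquitin system, Trim21 and Usp18 rose with PLX4720. Trim21, a ubiquitin ligase that binds antibodies in the cytosol, had log2 signals of 7.10, 7.26 and 6.68 with PLX4720, 5.28, 6.04 and 6.30 with bevacizumab, 6.96 and 6.45 with COMBO and 6.02, 5.79 and 5.07 with vehicle. It was detected on all PLX4720 and COMBO arrays and on 1 vehicle array, and its log2 fold change with PLX4720 was 1.39 (standard error 0.33, adjusted p = 0.023 from limma). Usp18 had 10.63, 10.31 and 9.17 with PLX4720, 8.67, 9.34 and 9.02 with bevacizumab, 10.18 and 9.30 with COMBO and 8.97, 8.96 and 8.32 with vehicle. PLX4720 array 3 was only slightly above the vehicle arrays, and the log2 fold change was 1.29 (standard error 0.39, adjusted p = 0.049). The dimmer probe of Usp18, detected on 10 arrays, gave -0.57 with PLX4720, so the direction differed between the probes.

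Isg15 itself had log2 signals of 7.54, 10.87 and 8.71 with PLX4720, 9.63, 9.44 and 9.27 with bevacizumab, 10.03 and 9.75 with COMBO and 9.40, 9.21 and 7.09 with vehicle. The PLX4720 arrays spanned the values of all other groups but the lowest vehicle array. Its log2 fold change was 0.47 with PLX4720 (standard error 0.74), 0.88 with bevacizumab (standard error 0.74) and 1.32 with COMBO (standard error 0.82). Dtx3l, a ubiquitin ligase that works with Parp9, had 7.06, 8.65 and 7.89 with PLX4720, 8.57, 8.49 and 8.38 with bevacizumab, 9.83 and 9.48 with COMBO and 8.87, 8.89 and 8.58 with vehicle. COMBO arrays were above all others and PLX4720 arrays 1 and 3 below all others on this probe. Its other probe, detected on all arrays, averaged 6.67 with PLX4720, 7.48 with bevacizumab, 6.85 with COMBO and 7.33 with vehicle, so that the direction with COMBO turned with the probe (0.87 on the brightest and -0.47 on the other). Parp14 and Trim25 had 1.21 and 0.79 with PLX4720 and did not pass.

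Of the sensors, Dhx58, which modulates RNA sensing by Ddx58 and Ifih1, had log2 signals of 8.81, 8.10 and 7.99 with PLX4720, 8.10, 7.56 and 7.40 with bevacizumab, 8.79 and 8.48 with COMBO and 7.50, 7.75 and 6.08 with vehicle. PLX4720 and COMBO arrays were all above the vehicle arrays, and the log2 fold change was 1.19 with PLX4720 (adjusted p = 0.074 from limma) and 1.52 with COMBO (adjusted p = 0.17). Ddx58, the sensor RIG-I, and Zbp1 had 0.38 and 0.27 with PLX4720, and another Zbp1 probe detected on all arrays gave -1.04 with PLX4720 and -0.50 with COMBO.

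Irgm1, a GTPase that acts in defense against intracellular pathogens, rose by 1.18 on the log2 scale with PLX4720 (standard error 0.34, limma, adjusted p = 0.040). It had log2 signals of 12.18, 12.93 and 11.53 with PLX4720, 11.03, 11.66 and 11.45 with bevacizumab, 12.04 and 11.61 with COMBO and 11.30, 10.87 and 10.91 with vehicle. Its other 2 detected probes gave 0.89 (detected on 11 arrays) and 0.29 (detected on 3 arrays). Igtp had 9.22, 9.95 and 8.52 with PLX4720, 8.44, 9.45 and 9.46 with bevacizumab, 10.36 and 9.03 with COMBO and 9.07, 8.51 and 6.92 with vehicle. Gbp2, a guanylate-binding protein, had 11.14, 11.62 and 9.53 with PLX4720, 9.54, 10.81 and 11.04 with bevacizumab, 11.62 and 10.41 with COMBO and 10.00, 10.10 and 8.96 with vehicle. For both genes the PLX4720 and vehicle arrays overlapped, and vehicle array 3 was the lowest of all. Socs1, a feedback inhibitor of the JAK kinases, had mean differences of -0.18 with PLX4720 and -0.28 with COMBO on a probe detected on 4 arrays.

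**Figure D2:**
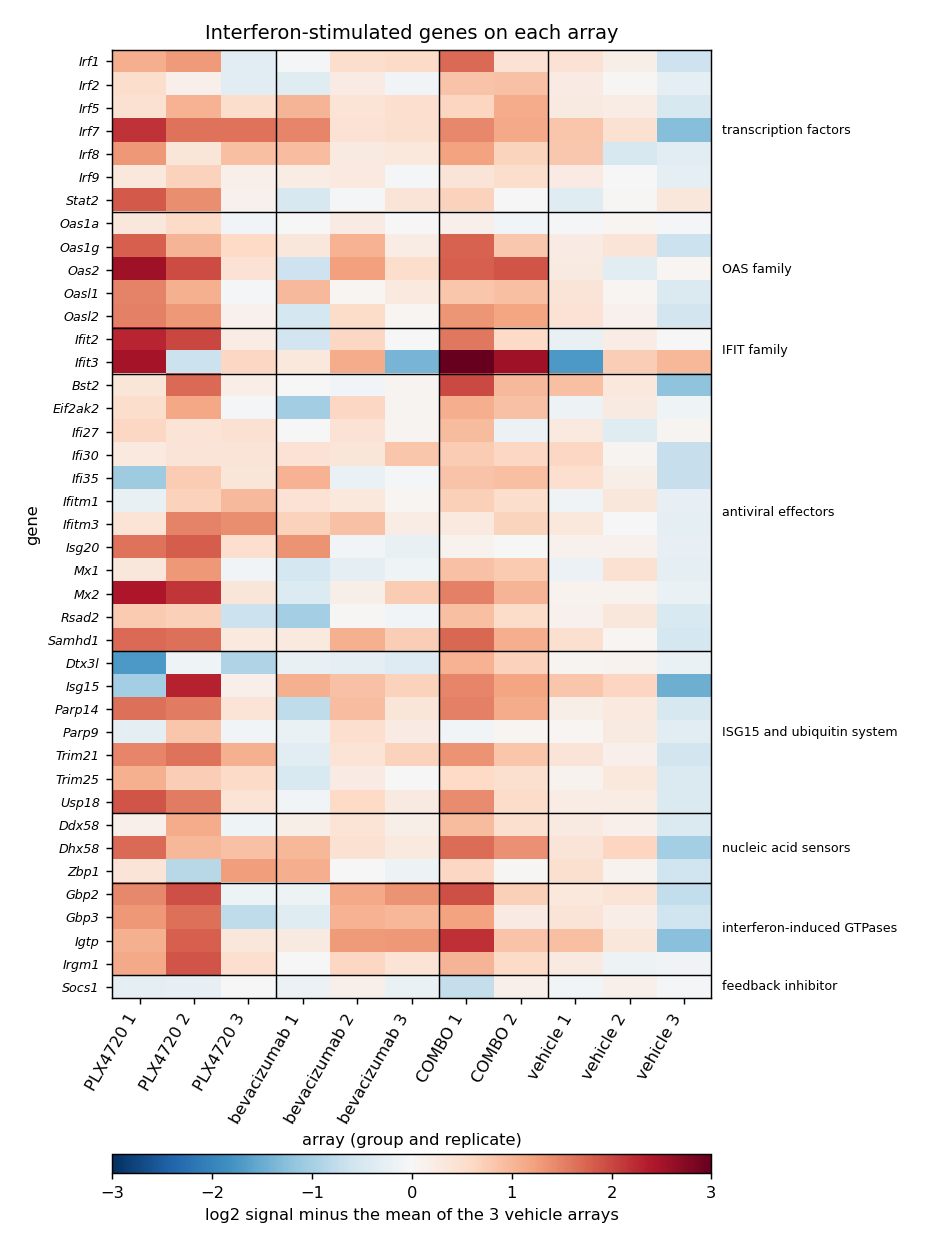
Log2 signal of each detected gene (rows, grouped by role) on each of the 11 arrays (columns, PLX4720, bevacizumab, COMBO and vehicle), minus the mean of the 3 vehicle arrays, with colors that stop at 3. PLX4720 arrays 1 and 2 and COMBO arrays 1 and 2 are red for most genes, COMBO array 2 less deeply than COMBO array 1. PLX4720 array 3 is paler, and vehicle array 3 is blue for most.

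**Figure D3:**
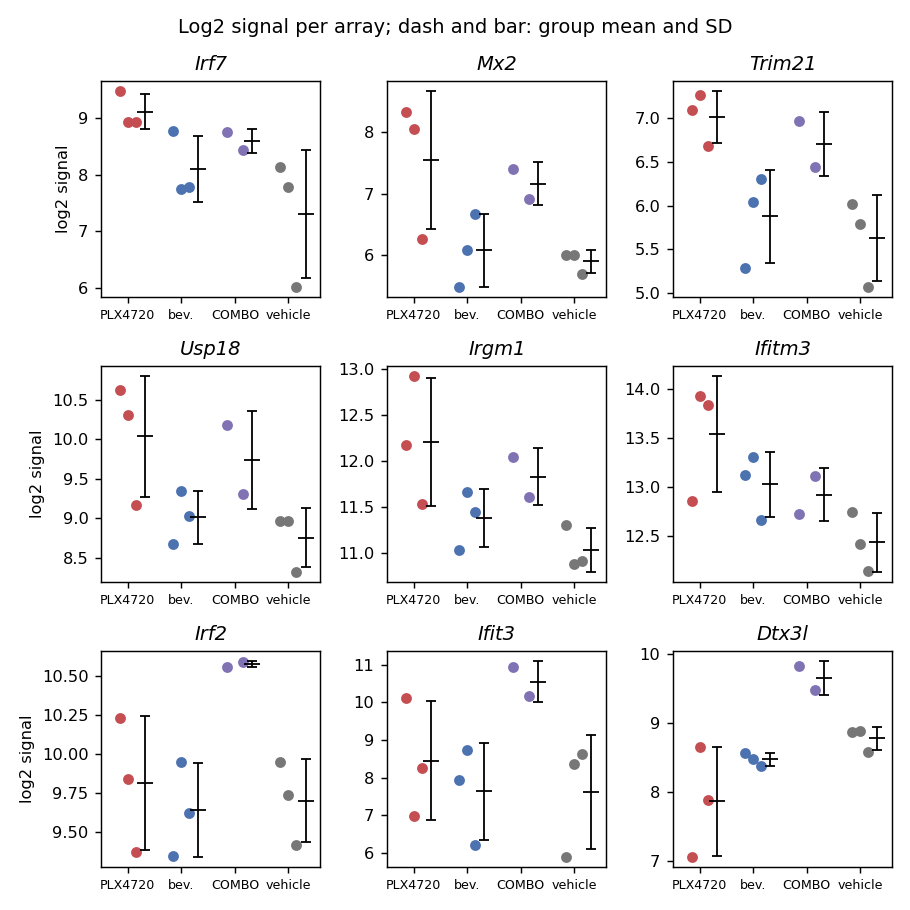
Log2 signal per array (points) of the 6 genes that rose with PLX4720 and of Irf2, Ifit3 and Dtx3l, with the group mean and SD beside them (n = 3, 3, 2 and 3 for PLX4720, bevacizumab, COMBO and vehicle, each panel with its own scale). The 6 genes that rose have every PLX4720 point above every vehicle point, and the last 3 genes have both COMBO points above all others.

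With bevacizumab, 0 of the 41 genes passed the adjusted test in limma, and 1 of 10933 genes did, which is 0.00915%. At an unadjusted p under 0.05, 1 gene, Irf5, was higher, against 3.28% of all genes. The median log2 fold change was 0.26, against 0.00 over all genes. A higher mean than with vehicle was found in 33 of the 41 genes, against 5444 of all 10933 genes. The largest differences were 0.95 for Igtp, 0.88 for Isg15, 0.80 for Irf7, 0.78 for Gbp2 and 0.71 for Samhd1, none past the test. Irf5, a transcription factor of inflammatory cytokine genes in macrophages, had log2 signals of 8.83, 8.22 and 8.31 with bevacizumab and 8.07, 8.02 and 7.32 with vehicle. It was the only gene with bevacizumab arrays above every vehicle array, against 6.6% of all genes, and Dtx3l the only one with all of them below, against 7.08%.

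With COMBO, 0 of the 41 genes passed the adjusted test against vehicle, and 0.366% of all genes did. The median log2 fold change was 0.87, against 0.01 over all genes, and 0.90 over the 34 genes detected on every array. At an unadjusted p under 0.05, 18 genes were higher, against 7.25% of all genes, and 0 were lower, against 6.7%. At the threshold of the methods Oas2, Samhd1 and Dhx58 were higher, against 1.97% of all genes. Both COMBO arrays lay above every vehicle array for 29 genes, against 20.8% of all genes, and below for 0, against 19.2%. With 2 arrays in the group, the standard error of a COMBO difference was larger than that of PLX4720 for every gene in the shared fit. The lack of adjusted calls does not show that the genes were at the vehicle level. The 4 genes with the largest differences after Ifit3 and Oas2 were Dhx58 and Igtp (1.52 each), Bst2 (1.48) and Samhd1 (1.41).

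The COMBO arrays were not alike. COMBO array 1 lay above COMBO array 2 for 32 of the 41 genes, by a median of 0.34, against -0.01 over all genes. The arrays differed by over 1 on the log2 scale for 6 genes, or 14.6%, against 5.64% of all genes. These were Igtp (1.33), Irf1 (1.26), Gbp2 (1.21), Ifi27 (1.13), Ifit2 (1.02) and Bst2 (1.00), all higher on COMBO array 1. Socs1 differed most the other way, by -0.86. COMBO array 1 was above the vehicle range for 37 genes and COMBO array 2 for 31. The share of all genes was not counted for single arrays, so these counts are not read as a trait of the 41 genes. COMBO array 1 also had the higher level of T cell markers (8.23 on array 1 and 5.80 on array 2) and of muscle markers (10.33 and 6.76), whereas macrophage markers were higher on array 2 (10.58 on array 1 and 11.07 on array 2). Their part in the difference between the arrays was not tested.

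The median over the 41 genes, relative to the vehicle mean, was 1.07, 1.15 and 0.35 on PLX4720 arrays 1, 2 and 3, 0.01, 0.42 and 0.23 on the bevacizumab arrays, 1.05 and 0.70 on the COMBO arrays and 0.27, 0.18 and -0.43 on the vehicle arrays. PLX4720 array 3 thus lay between the bevacizumab medians and well below the other PLX4720 arrays. The highest of the 11 values fell on PLX4720 array 1 for 13 genes, on PLX4720 array 2 for 13 and on PLX4720 array 3 for 2, and on COMBO array 1 for 8 and COMBO array 2 for 2. Of all genes, 21.8% were highest on PLX4720 array 1, 11.1% on PLX4720 array 2, 13.2% on PLX4720 array 3, 6.12% on COMBO array 1 and 4.77% on COMBO array 2. Vehicle array 3 had the lowest value for 21 genes and bevacizumab array 1 for 10, and the share of all genes lowest on each array was not counted. Vehicle array 3 was also the lowest of all arrays in the leukocyte (9.92), macrophage (9.63) and natural killer (5.62) levels, and its part in the fold changes was measured by leaving it out. The PLX4720 median was then 0.53 and the COMBO median 0.69, and the number of genes that rose with PLX4720 was 0. That number was 0 without vehicle array 2 too, 1 without PLX4720 array 1 or PLX4720 array 2, 2 without either COMBO array, 3 without vehicle array 1 or bevacizumab array 2, and 13 without PLX4720 array 3. Without PLX4720 array 2, Dtx3l also passed the test, with a lower mean in PLX4720 tumors. Over the 11 fits that each left out 1 array, Irf7 passed in 8, Trim21 in 7, Mx2, Irgm1 and Ifitm3 in 3 each and Usp18 in 1.

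**Figure D4:**
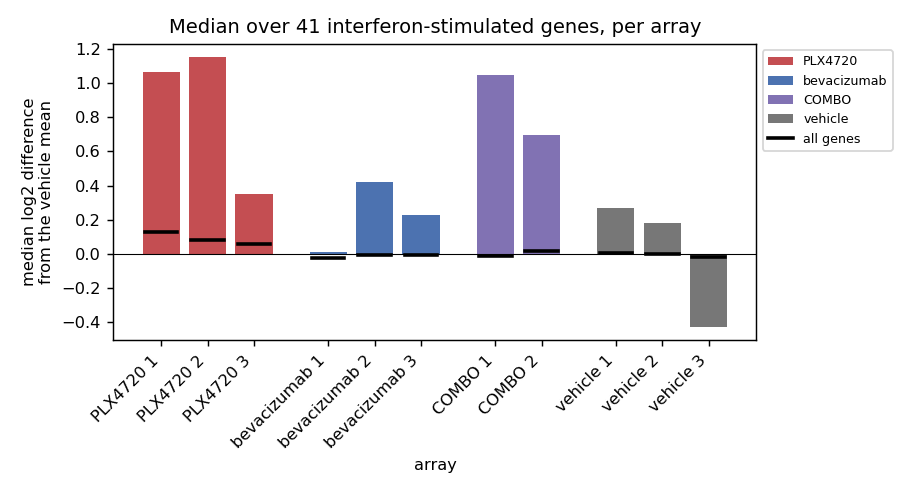
Median over the 41 detected genes of the log2 signal minus the vehicle mean, for each array (bars, colored by group), with the same median over all 10933 genes as a black line. PLX4720 arrays 1 and 2 and COMBO array 1 are above 1, PLX4720 array 3 is at 0.35 and vehicle array 3 is at -0.43, while all genes stay between -0.02 and 0.13.

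COMBO was compared with PLX4720 to read the change when bevacizumab is added. Of the 41 genes, 0 passed the adjusted test, against 0.00915% of all genes, and the median was 0.15, against -0.07 over all genes. This median was -0.07 with median scaling, so its direction depends on the scaling. COMBO arrays lay above every PLX4720 array for 5 genes (Ifit3, Dtx3l, Ifi30, Ifi35 and Irf2), against 14.5% of all genes, and below for Irf7 and Isg20, against 17.2%. Dtx3l had the smallest adjusted p (log2 fold change 1.79, standard error 0.38, 95% interval 0.96 to 2.61, adjusted p = 0.091 from limma), while its dimmer probe, detected on all arrays, gave 0.18. Ifit3 had 2.09 (standard error 0.98, 95% interval -0.04 to 4.23), with 2.11 on its other probe. For the 6 genes that rose with PLX4720, COMBO minus PLX4720 was -0.52 for Irf7 (95% interval -1.69 to 0.65), -0.39 for Mx2 (-1.54 to 0.77), -0.31 for Trim21 (-1.12 to 0.51), -0.30 for Usp18 (-1.24 to 0.65), -0.39 for Irgm1 (-1.20 to 0.43) and -0.62 for Ifitm3 (-1.40 to 0.16). These intervals include 0 and also differences of over 1 on the log2 scale downward, so the groups are not shown to be alike. On other detected probes the difference was 1.67 for Usp18 (detected on 10 arrays), and 0.13 (11 arrays) and 0.68 (3 arrays) for Irgm1. The direction thus turned with the probe, though for Irgm1 the probe detected on all arrays was near 0. The 6 genes were picked for high PLX4720 values, and the same PLX4720 arrays enter this difference. That choice favors lower COMBO values, so whether bevacizumab lowers these genes cannot be read from them.

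COMBO set against the average of PLX4720, bevacizumab and vehicle had 0 adjusted calls among the 41 genes, against 0.0183% of all genes, and a median of 0.53, against -0.01 over all genes. At an unadjusted p under 0.05, 8 genes were higher, against 4.41% of all genes. Both COMBO arrays lay above all 9 other arrays for Irf2, Ifit3 and Dtx3l, against 1.78% of all genes. Irf2 had log2 signals of 10.23, 9.84 and 9.37 with PLX4720, 9.35, 9.95 and 9.62 with bevacizumab, 10.56 and 10.59 with COMBO and 9.95, 9.74 and 9.42 with vehicle. Its log2 fold change with COMBO was 0.87 against vehicle (standard error 0.30, 95% interval 0.21 to 1.54, adjusted p = 0.23 from limma) and 0.76 against PLX4720 (standard error 0.30, adjusted p = 0.28). Whether the change made by bevacizumab differed with and without PLX4720 was tested as a non-additive effect, with 0 calls among the 41 genes, against 0.00915% of all genes. Dtx3l, Ifitm3 and Isg20, or 3 genes, had an unadjusted p under 0.05, against 14% of all genes, so the share among the 41 genes was below that of all genes. For Dtx3l the effect was 2.09 (adjusted p = 0.14 from limma) on the brightest probe and 0.025 on its other probe. An F test of any difference among the 4 groups, read at an adjusted p of 0.1, was passed by Dtx3l (adjusted p = 0.063) and Trim21 (adjusted p = 0.067), against 10.6% of all genes.

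Other genes of the pathway were read from a list of 54, of which 37 were measured. With PLX4720 5 rose and 1 fell, and the median was 0.66. Those that rose were Tlr7, an endosomal sensor of single-stranded RNA (log2 fold change 1.49, adjusted p = 0.018 from limma), Jak1 (1.36, adjusted p = 0.040), Tap1, a peptide transporter for antigen presentation (1.09, adjusted p = 0.026), Mavs, the adaptor of RNA sensors (1.02, adjusted p = 0.041), and B2m, the light chain of class I molecules (0.94, adjusted p = 0.031). Ifna1 fell by 1.21 on the log2 scale (adjusted p = 0.0069), and its probe could share signal with near-identical interferon alpha genes. Of 7 ligands, Ifna1 and Ifng were measured, and Ifng was detected on 1 array only. With bevacizumab and with COMBO 0 of the 37 passed, with medians of 0.27 and 0.66. The largest difference with COMBO was 2.97 for Cxcl9, a chemokine induced by interferon gamma (adjusted p = 0.17), which had 2.37 with PLX4720 (adjusted p = 0.068) and 1.56 with bevacizumab. The 3 comparisons share the vehicle arrays, so their values are not independent of each other.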

How the data were processed

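Mouse arrays of 11 tumors were used. The authors deposited non-normalized signal intensity per probe, exported from GenomeStudio 2011.01, and intensity after cubic spline normalization. The negative control beads gave the detection p-value that the authors deposited for every probe. Array number limits the precision.

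Background correction and quantile normalization used neqc (limma 3.58.1, R 4.3.3, offset 16), which then takes log2, so the log2 scale is not the authors' but was computed from the deposited values. Of 45281 probes, 34885 had 1 gene symbol, 18 had several and 10378 had none; only the first were used, and 34807 matched the gene table. Probes detected on no array (p of 0.05 or more throughout) were left out, and the brightest probe stood for its gene (10933 genes). A single limma fit held all groups (7 residual and 4.92 prior degrees of freedom), with Benjamini-Hochberg adjustment over all genes. COMBO, with 2 arrays, shares the spread of the other groups.

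Values on every array are given for genes called in any comparison, for the 5 largest differences in each of 4 comparisons and for Irf2. The genes and lists were chosen with earlier results of these data known. Reversing the order of log2 and quantile normalization was an alternative chosen after seeing the data. Others were other scalings, filters, probes, weights, moderation, covariates and arrays. Promoters came from RefSeq (GRCm38.p6). The human arrays of the same tumors were not analysed here.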

Additional observations from a re-analysis of the deposited data

How the results depend on the processing

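Counts of called genes and medians were computed under 28 settings, 11 of which left out 1 array. Of the 306 values this gave, 267 stayed within 1.5 times the count, or within the spread of 0.39 between arrays for a median. That spread exceeds the medians with bevacizumab (0.26) and of COMBO against PLX4720 (0.15), which could change sign and still count as within it. Several counts were 0 in the main fit and had little room to move. The 267 is therefore not a measure of how stable the results are. Of the 306 values 0 reversed a direction called. The median of COMBO against PLX4720, where no gene was called, did change sign. It was -0.12 without PLX4720 array 3 and also negative with median scaling. The 6 genes that rose with PLX4720 were 20 with median scaling, 14 with housekeeping scaling, and 1 each with no detection filter, with the groups compared only, with muscle signal as a covariate and without the 3 arrays highest in muscle genes. The remaining gene was Trim21 in the first 2 of these and Ifitm3 in the muscle alternatives. With an array left out the number called was 0 to 13, including 1 that fell (Dtx3l, without PLX4720 array 2). The 2 genes of the F test were 17 with median scaling, 15 with housekeeping scaling, 8 with array weights, 4 with the mean of probes, 1 with muscle signal as a covariate, 0 with no detection filter, 0 without the 3 arrays highest in muscle genes, 0 with the one-way test of the methods and 0 to 13 with an array left out. With COMBO against vehicle, the 0 calls were 1 with array weights, 1 with the groups compared only and 3 at the threshold of the methods. COMBO against PLX4720 gave 1 at that threshold and 0 to 1 with an array left out. COMBO against the other groups gave 1 with array weights and 2 at that threshold, and the non-additive effect gave 1 at that threshold and 0 to 1 with an array left out. The cause of these changes was not tested.

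The median with PLX4720 was 0.53 to 0.96 with an array left out, that with bevacizumab 0.07 to 0.41, that with COMBO 0.69 to 1.05, that of COMBO against the other groups 0.27 to 0.79, and that of COMBO against PLX4720 -0.12 to 0.34. With housekeeping scaling, the median of all genes moved to -0.09 with PLX4720, while the 41 genes had 0.93. Replicate numbers did not pair the arrays across all groups, since 2 of 15 correlations between same-numbered arrays were over 0.1 (range -0.24 to 0.26). Those 2 were the pairs of PLX4720 with COMBO, at 0.26 for replicate 1 and 0.24 for replicate 2, and their cause was not tested. A replicate block gave 1 gene in the F test. With the block 5 genes rose with PLX4720, of which Irf7, Trim21 and Usp18 were among the 6 and Dhx58 and Isg20 were not, while the calls of Mx2, Irgm1 and Ifitm3 were lost. The bead chip could not be used as a block, since the headers name none. Taking log2 before quantile normalization gave 6 genes with PLX4720 and 2 in the F test.

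Signal near background limits Isg20, Mx1, Oas1a, Parp9 and Socs1, which were detected on 1 to 4 arrays. Mx2 and Trim21, which rose with PLX4720, were detected on 1 vehicle array each. Their vehicle means (5.90 and 5.62) are thus near background too.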
